A study of Mus musculus with 11 samples.

Results

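Genes used to recognise retinal bipolar cells were followed across the whole retina of 11 mice: the homeodomain factors Vsx1 and Isl1, the calcium-binding proteins Cabp5 and Scgn, the kainate receptor subunit Grik1 and the neurokinin receptor Tacr3. These 6 were taken by symbol from a table of 37991 Ensembl genes, and 6 of 6 were found. All 6 passed the filter on low counts, with between 705 and 4677 reads per gene and library. The mice formed 4 groups at postnatal day 24. Mice of the strain labelled rd10 B6.CXB1-Pde6brd10/Jrd10, which carry a mutant allele of the rod phosphodiesterase gene Pde6b, received the LSD1 inhibitor GSK2879552 (rd10 GSK, n = 3) or saline (rd10 saline, n = 3). Wild-type C57Bl/6J mice received the inhibitor (WT GSK, n = 3) or saline (WT saline, n = 2). Injections were daily and intraperitoneal from day 9 to day 24, at 4.2 mg/kg for the inhibitor. Each library came from the right retina of 1 animal, so n counts animals. The strain background is labelled C57Bl/6J in every group, and the labels name neither sex nor litter.

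Bipolar cells are the interneurons that carry photoreceptor signals to amacrine and ganglion cells. In darkness photoreceptors release glutamate. OFF bipolar cells answer it with ionotropic glutamate receptors, kainate receptors with the Grik1 subunit among them, whereas ON bipolar cells invert the signal through the metabotropic receptor Grm6 and the channel Trpm1. In the mouse, Vsx1 is required for the terminal differentiation of OFF cone bipolar cells, and Isl1 for the differentiation of ON bipolar cells. The 6 genes therefore do not mark 1 cell type. Isl1 is also expressed by starburst amacrine and ganglion cells, Cabp5 by rod bipolar cells and some cone bipolar types, and Scgn by several cone bipolar types, while Tacr3 and Grik1 label OFF types. LSD1 is a histone demethylase, and in rd10 mice rods degenerate from the third postnatal week.

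The libraries held between 19657030 and 28053367 counts. Pde6b, the gene that is mutated in rd10, lay between 991 and 1757 CPM (reads of a gene relative to library size, after TMM scaling, which sets libraries equal over the bulk of their genes) in rd10 GSK, between 332 and 422 CPM in rd10 saline, between 2214 and 2282 CPM in WT GSK and between 2231 and 2301 CPM in WT saline. Geometric means of 16 rod genes, as a percentage of WT saline, were 41.5%, 60.3% and 76.3% in rd10 GSK replicates 1, 2 and 3, against 17.2% to 20.8% in rd10 saline. They were 95.1% to 98.4% in WT GSK and 98.9% and 101.1% in WT saline. Lens genes, which a dissection can carry along, summed to 7274 CPM in rd10 GSK replicate 2 and 722 CPM in WT saline replicate 2, whereas the remaining 9 libraries stayed at or below 17.1 CPM. The female-specific RNA Xist reached 780 CPM or more in 7 libraries and at 0.338 CPM or less in 4. The 4 were rd10 GSK replicates 1 and 3, rd10 saline replicate 2 and WT GSK replicate 2.

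Promoter sequence was available from RefSeq (GRCm38.p6) for 5 of the 6 genes. The 250 bases before the annotated start are given for Cabp5 and Isl1, which had the largest decreases with the inhibitor in rd10, and for Vsx1, which did not pass the test there. Capitals mark TAATCC, the core recognised by the homeodomain factors OTX2 and CRX, on either strand.
Cabp5 (chr7:13397905-13398154, plus strand): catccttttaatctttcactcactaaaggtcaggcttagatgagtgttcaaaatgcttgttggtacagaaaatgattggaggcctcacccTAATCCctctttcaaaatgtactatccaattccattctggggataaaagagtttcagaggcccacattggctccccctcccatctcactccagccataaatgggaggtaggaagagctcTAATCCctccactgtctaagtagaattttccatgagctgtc
Isl1 (chr13:116309689-116309938, minus strand): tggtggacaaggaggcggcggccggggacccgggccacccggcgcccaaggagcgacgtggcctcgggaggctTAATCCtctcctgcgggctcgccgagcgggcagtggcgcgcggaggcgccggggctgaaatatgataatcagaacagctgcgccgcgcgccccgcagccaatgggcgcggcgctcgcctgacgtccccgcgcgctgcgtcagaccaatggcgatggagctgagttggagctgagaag
Vsx1 (chr2:150689138-150689387, minus strand): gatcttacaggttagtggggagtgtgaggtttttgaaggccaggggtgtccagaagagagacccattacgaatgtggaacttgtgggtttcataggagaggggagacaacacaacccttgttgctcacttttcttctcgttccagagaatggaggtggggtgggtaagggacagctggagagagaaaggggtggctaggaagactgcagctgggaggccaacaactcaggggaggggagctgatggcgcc
Of this motif 2 copies were found for Cabp5, 1 for Isl1 and 0 for Vsx1, Scgn and Tacr3. Of 32851 promoter windows of this length, 6.25% held at least 1 copy and 0.295% at least 2. The palindromic homeodomain core TAATTA was in none of the 5 windows and in 4.84% of all. These are matches of letters, and binding was not measured.

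In rd10 retinas given saline, 3 of the genes stood above wild type. Isl1, Cabp5 and Grik1 rose against WT saline, and Vsx1, Scgn and Tacr3 did not pass the test, so 3 of 6 rose and 0 fell. Of all 17099 genes tested in this comparison, 21.5% rose and 19.0% fell. Calls here and below are edgeR quasi-likelihood tests with Benjamini-Hochberg adjusted p under 0.05 over all tested genes, and changes are log2 fold changes with their standard error (SE). The median of the 6 changes was 0.12, beside 0.02 over all genes. In whole tissue, fewer cells of a type and less RNA per cell cannot be told apart, and a share of counts also moves when another cell type is lost.

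Glial genes were higher in the same comparison. Of 11 microglia genes 11 rose (median 3.30), and they summed to 511 to 608 CPM in rd10 saline and 91.0 to 92.7 CPM in WT saline. Of 10 Müller glia genes 7 rose and 0 fell (median 0.89), with sums of 9038 to 10620 CPM in rd10 saline and 6046 to 6240 CPM in WT saline. All 16 rod genes fell (median -2.40). The part of these cells in the results for the 6 genes was not tested.

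The kainate receptor subunit Grik1 had 204, 195 and 182 CPM in rd10 saline replicates 1, 2 and 3, against 130 and 133 CPM in WT saline. Every rd10 saline library lay above both wild-type ones. The log2 change was 0.56 ± 0.10 (adjusted p = 0.000866), or 1.48-fold. Here and below, the share of all genes whose libraries do not overlap between groups was not counted.

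The ON bipolar factor Isl1 had 136, 141 and 143 CPM in rd10 saline, against 98.9 and 109 CPM in WT saline. These groups did not overlap, and the log2 change was 0.43 ± 0.06 (adjusted p = 0.000174). Of the other cells that express Isl1, starburst amacrine genes summed to 253 to 267 CPM in rd10 saline and 199 to 203 CPM in WT saline, with 2 of 6 tested genes risen, Megf10 and Sox2. Both are also expressed by Müller glia, and 0 fell. Ganglion cell genes summed to 1783 to 1839 CPM in rd10 saline and 1951 to 2040 CPM in WT saline, with 2 of 11 fallen. Their part in the Isl1 result was not tested.

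Cabp5, a calmodulin-like calcium-binding protein, had 132, 143 and 134 CPM in rd10 saline, against 121 and 113 CPM in WT saline. The 2 groups lay close without overlapping, and the log2 change was 0.22 ± 0.06 (adjusted p = 0.0140). This call ended without WT saline replicate 2 (0.17, adjusted p = 0.148) and without both lens-bearing libraries (0.16, adjusted p = 0.190).

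The remaining genes were near wild type. The OFF bipolar factor Vsx1 had 51.7, 54.3 and 52.3 CPM in rd10 saline, against 49.1 and 55.1 CPM in WT saline (0.02 ± 0.17, adjusted p = 0.946). Scgn, which encodes the calcium sensor secretagogin, had 80.6, 89.2 and 77.2 CPM in rd10 saline, against 80.8 and 81.1 CPM in WT saline (0.02 ± 0.11, adjusted p = 0.880). Tacr3, the neurokinin B receptor, had 41.3, 44.8 and 43.9 CPM in rd10 saline, against 41.4 and 44.2 CPM in WT saline (0.02 ± 0.07, adjusted p = 0.878). In each of these 3 genes the libraries of both groups overlapped.

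**Figure D1:**
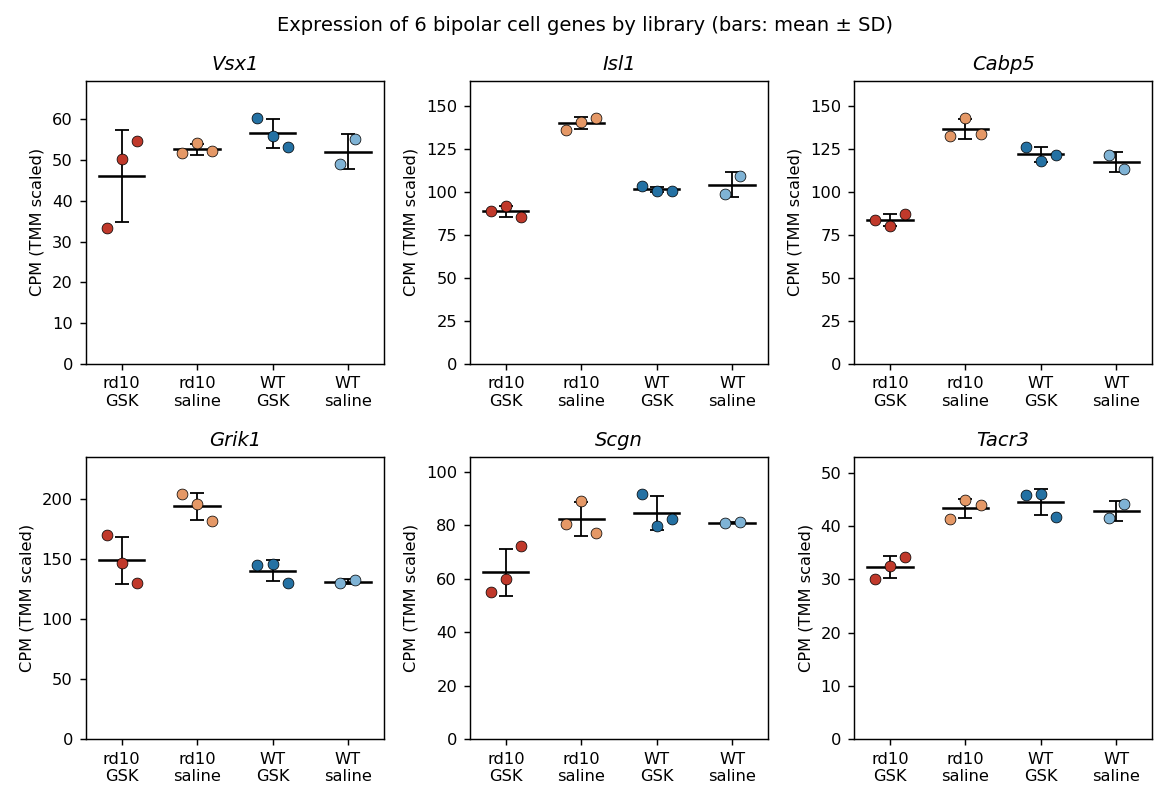
Each panel plots the level of 1 gene in CPM with TMM scaling (y axis, from 0) in the 4 groups, with a point per library, a horizontal line at the mean and a bar of ± SD (n = 3, and n = 2 for WT saline). Isl1 and Cabp5 are lowest in rd10 GSK and highest in rd10 saline without overlap, and Vsx1 has 1 low library, rd10 GSK replicate 1 at 33.4 CPM.

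With the inhibitor, 5 of the 6 genes fell in rd10 retinas. Isl1, Cabp5, Grik1, Scgn and Tacr3 fell in rd10 GSK against rd10 saline and Vsx1 did not pass, where 15.2% of all tested genes fell and 17.6% rose. This comparison shares the rd10 saline libraries with the one before. The 6 changes had a median of -0.41, beside 0.01 over all genes. In the same comparison the 16 rod genes all rose, 11 of 11 microglia genes and 6 of 10 Müller glia genes fell, and microglia genes summed to 155 to 311 CPM in rd10 GSK and 511 to 608 CPM in rd10 saline. Müller glia genes summed to 5732 to 6501 CPM in rd10 GSK and 9038 to 10620 CPM in rd10 saline. The part of these other cells in the bipolar results was not tested.

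Cabp5 had the largest decrease of the 6, with 83.6, 80.0 and 87.1 CPM in rd10 GSK replicates 1, 2 and 3, against 132, 143 and 134 CPM in rd10 saline. Its rd10 GSK libraries lay far below all others in the study. The log2 change was -0.70 ± 0.05 (adjusted p = 7.31e-06), or 0.613-fold.

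Isl1 had 88.6, 91.8 and 85.3 CPM in rd10 GSK, against 136, 141 and 143 CPM in rd10 saline (-0.66 ± 0.05, adjusted p = 8.07e-06). With TMM the 3 treated libraries lay close together. Under the amacrine scaling described below, replicates 1, 2 and 3 had 99.95, 98.55 and 87.38 CPM. A relation to rod level was not tested. Starburst amacrine genes summed to 191 to 207 CPM in rd10 GSK and 253 to 267 CPM in rd10 saline, and 2 of 6 fell. Ganglion cell genes summed to 1388 to 1544 CPM in rd10 GSK and 1783 to 1839 CPM in rd10 saline, and 9 of 11 fell. In wild type their sums were also lower with the inhibitor, at 1614 to 1677 CPM in WT GSK and 1951 to 2040 CPM in WT saline. There 1 of 11 was called as fallen, and 0 of 11 had a called interaction. Starburst amacrine genes summed to 197 to 204 CPM in WT GSK and 199 to 203 CPM in WT saline. The part of these cells in the Isl1 decrease was not tested.

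Tacr3 had 30.1, 32.5 and 34.2 CPM in rd10 GSK, against 41.3, 44.8 and 43.9 CPM in rd10 saline (-0.42 ± 0.07, adjusted p = 0.000669). Scgn had 55.0, 59.8 and 72.2 CPM in rd10 GSK, against 80.6, 89.2 and 77.2 CPM in rd10 saline (-0.40 ± 0.10, adjusted p = 0.00762). Neither gene's groups overlapped, though Scgn in rd10 GSK replicate 3 came close to the saline libraries, and its call ended without the lens-bearing libraries (-0.36, adjusted p = 0.0572).

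Grik1 had 170, 146 and 130 CPM in rd10 GSK, against 204, 195 and 182 CPM in rd10 saline (-0.38 ± 0.09, adjusted p = 0.00562). With TMM the treated libraries were all lower but spread widely, from near the saline libraries to the wild-type level.

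Vsx1 had 33.4, 50.3 and 54.7 CPM in rd10 GSK, against 51.7, 54.3 and 52.3 CPM in rd10 saline, and did not pass (-0.19 ± 0.15, adjusted p = 0.353). Only rd10 GSK replicate 1 stood apart: without it the change was 0.00 ± 0.07 (adjusted p = 0.980), and without rd10 GSK replicate 3 it was -0.34.

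**Figure D2:**
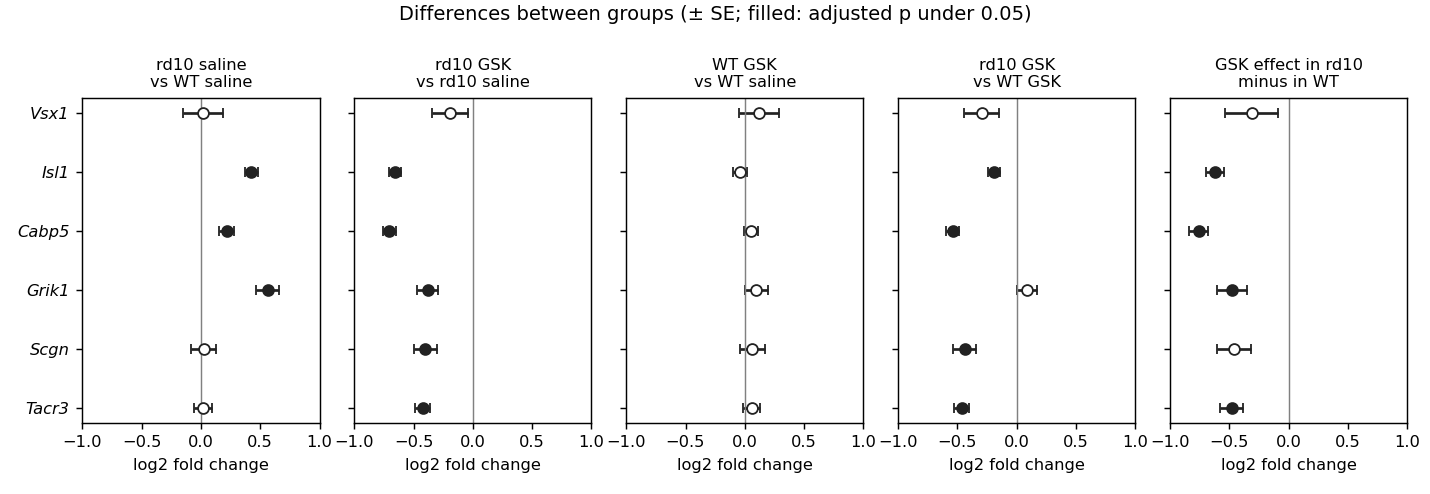
Each panel plots log2 fold changes (x axis) with bars of ± SE for the 6 genes in 1 comparison, filled where the adjusted p was under 0.05. Filled points lie right of 0 for Isl1, Cabp5 and Grik1 in rd10 saline against WT saline, and left of 0 for 5 genes in rd10 GSK against rd10 saline, while all 6 points are open in wild type.

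In wild-type retinas none of the 6 genes passed the test with the inhibitor. They had changes between -0.04 ± 0.06 (Isl1) and 0.12 ± 0.17 (Vsx1) against WT saline, 0 of 6 called by edgeR where 0.532% of all genes were. At an unadjusted p under 0.05 edgeR counted 0 of 6, against 8.98% of all genes. DESeq2 called 0 of 6, against 1.10% of all genes, and limma-voom 0 of 6, against 0.304%. Isl1 had 103, 100 and 100 CPM in WT GSK, against 98.9 and 109 CPM in WT saline. Cabp5 had 126, 118 and 122 CPM in WT GSK, against 121 and 113 CPM in WT saline. Grik1 had 145, 145 and 130 CPM in WT GSK, against 130 and 133 CPM in WT saline. For each of the 6 genes the libraries of WT GSK and WT saline overlapped.

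The inhibitor's effect in rd10 differed from its effect in wild type for 4 of the 6 genes, all lower in rd10, where 4.98% of all tested genes had such a negative interaction and 7.49% a positive one. The difference of the effects was -0.76 ± 0.08 for Cabp5 (adjusted p = 0.000243), -0.62 ± 0.08 for Isl1 (adjusted p = 0.000602), -0.48 ± 0.10 for Tacr3 (adjusted p = 0.00974) and -0.48 ± 0.13 for Grik1 (adjusted p = 0.0342). Scgn at -0.46 ± 0.14 missed the threshold (adjusted p = 0.0570), and Vsx1 at -0.31 ± 0.22 did so more widely (adjusted p = 0.414). The Cabp5 and Isl1 calls held in each of 20 alternatives. The Grik1 call ended in 9 of 20, with adjusted p between 0.0657 and 0.203. They were amacrine scaling, the removal of both lens-bearing libraries, and the removal of any 1 of WT saline replicates 1 and 2, WT GSK replicates 1 and 2, rd10 saline replicates 1 and 2 and rd10 GSK replicate 2. Tacr3 missed without WT saline replicate 1 (adjusted p = 0.0667) and without the lens-bearing libraries (adjusted p = 0.0679), and Scgn passed without rd10 GSK replicate 3 (adjusted p = 0.00455) and by DESeq2 (adjusted p = 0.0241).

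Set against wild-type retinas given the same inhibitor, treated rd10 retinas had less Cabp5, Tacr3, Scgn and Isl1 RNA. This is 4 of 6 fallen, where 10.9% of all tested genes fell and 15.4% rose, with a median change of -0.37 beside 0.01 over all genes. Cabp5 had 83.6, 80.0 and 87.1 CPM in rd10 GSK, against 126, 118 and 122 CPM in WT GSK (-0.54 ± 0.05, adjusted p = 0.000142). Tacr3 had 30.1, 32.5 and 34.2 CPM in rd10 GSK, against 45.8, 46.1 and 41.7 CPM in WT GSK (-0.47 ± 0.07, adjusted p = 0.000942). Both genes were separated by gaps wider than the spread in either group.

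Scgn had 55.0, 59.8 and 72.2 CPM in rd10 GSK, against 91.8, 79.6 and 82.2 CPM in WT GSK (-0.44 ± 0.10, adjusted p = 0.00764). Without the lens-bearing libraries its adjusted p was 0.0505. Isl1 had a small decrease (-0.19 ± 0.05, adjusted p = 0.0186), with 88.6, 91.8 and 85.3 CPM in rd10 GSK, against 103, 100 and 100 CPM in WT GSK. That call ended without WT GSK replicate 1 (adjusted p = 0.0726), without WT GSK replicate 2 (adjusted p = 0.0505) and under amacrine scaling (adjusted p = 0.254).

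The 2 genes not called in this comparison were Grik1 and Vsx1. Grik1 had 170, 146 and 130 CPM in rd10 GSK, against 145, 145 and 130 CPM in WT GSK (0.09 ± 0.09, adjusted p = 0.502). Vsx1 had 33.4, 50.3 and 54.7 CPM in rd10 GSK, against 60.4, 56.0 and 53.3 CPM in WT GSK (-0.30 ± 0.15, adjusted p = 0.172), and passed when rd10 GSK replicate 3 was left out (-0.44, adjusted p = 0.0399).

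The 4 groups were separated differently from gene to gene. Cabp5 and Isl1 were lowest in rd10 GSK (83.6 ± 3.55 and 88.6 ± 3.25 CPM, SD, n = 3) and highest in rd10 saline (136 ± 5.71 and 140 ± 3.49 CPM, SD, n = 3), with WT GSK and WT saline between them and not separated. Tacr3 and Scgn were lowest in rd10 GSK (32.3 ± 2.05 and 62.3 ± 8.86 CPM, SD, n = 3), while their other 3 groups overlapped. Grik1 was highest in rd10 saline (194 ± 11.4 CPM, SD, n = 3), and its rd10 GSK, WT GSK and WT saline libraries overlapped at 149 ± 19.8, 140 ± 8.56 and 131 ± 1.89 CPM (SD, n = 3, and n = 2 for WT saline). Vsx1 overlapped in all 4 groups.

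The spread among the 3 treated rd10 retinas was itself uneven between genes. Taking the WT saline mean as the base, Vsx1 reached 64.2%, 96.6% and 105% in rd10 GSK replicates 1, 2 and 3, and Scgn at 68.0%, 73.9% and 89.2%. Grik1 ran the other way, at 129%, 112% and 99.2% in the same libraries. Rod genes were lowest in replicate 1 (41.5%) and highest in replicate 3 (76.3%), so Vsx1, Scgn and Tacr3 were lowest, and Grik1 highest, in the library with the least rod RNA. Cabp5, at 71.3%, 68.3% and 74.3%, and Isl1, at 85.2%, 88.3% and 82.0%, varied little. These are 3 animals, and no relation was tested.

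**Figure D3:**
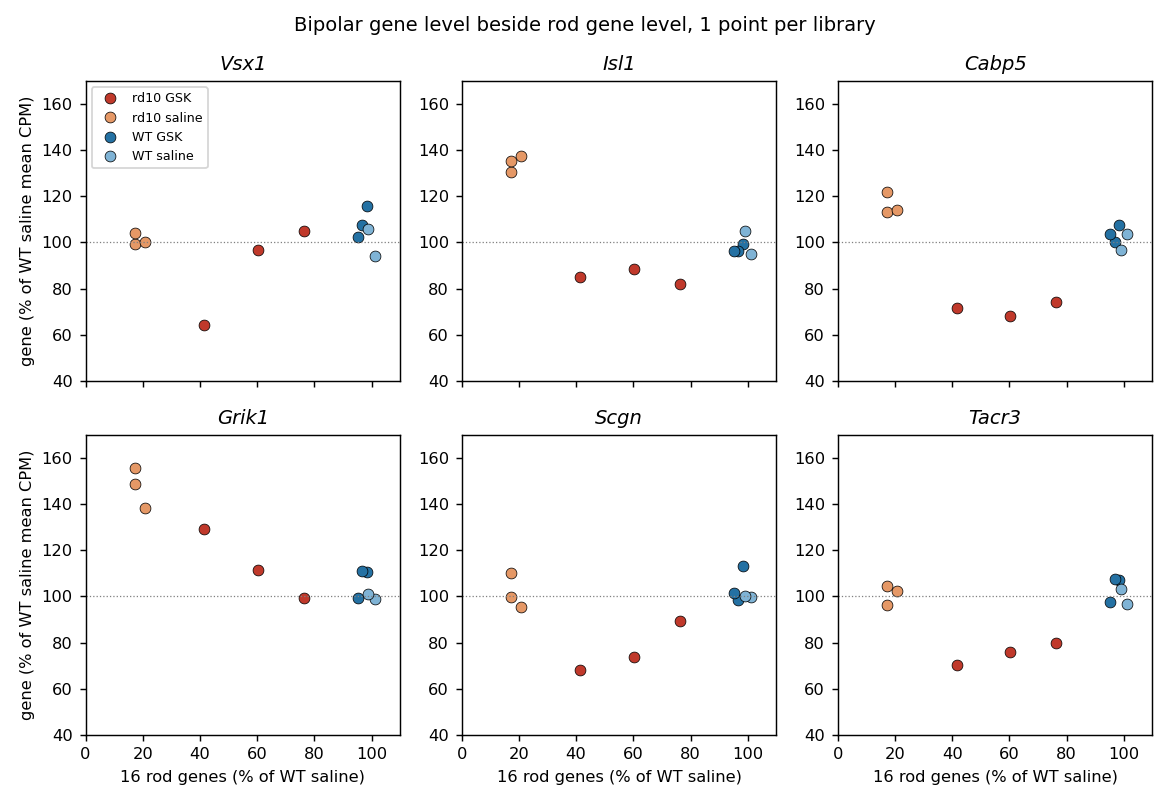
Each point is 1 library, with the geometric mean of 16 rod genes on the x axis and the named gene on the y axis, both as a percentage of WT saline. In rd10 GSK the Grik1 points run from 129% to 99.2% and the Vsx1 points from 64.2% to 105%, whereas Cabp5 stays between 68.3% and 74.3% at rod levels from 41.5% to 76.3%.

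The balance among the 6 genes also differed, a comparison that needs no scaling between libraries. Grik1 made up 36.8%, 31.8% and 28.1% of the reads of the 6 genes in rd10 GSK and 31.6%, 29.3% and 28.8% in rd10 saline, against 25.3%, 26.7% and 24.6% in WT GSK and 24.9% and 24.8% in WT saline. Every rd10 library was above every wild-type one. Cabp5 made up 17.4% to 18.8% in rd10 GSK, 20.5% to 21.4% in rd10 saline, 21.6% to 23.0% in WT GSK and 21.1% to 23.3% in WT saline, so the treated rd10 libraries were below all others. Tacr3 made up 6.54% to 7.37% in rd10 GSK and 6.39% to 6.95% in rd10 saline, below the 7.88% to 8.45% in WT GSK and 7.94% to 8.26% in WT saline. Shares of 1 total are not independent of each other.

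The scaling bears on how large these decreases are. When libraries were scaled on 12 amacrine cell genes in place of TMM, so that values read relative to another inner retinal class, the median of all genes in rd10 GSK against rd10 saline was 0.20, and 88.0% of the called genes were higher, against 53.6% with TMM. On that scale Cabp5 (-0.51), Isl1 (-0.46), Tacr3 (-0.23) and Scgn (-0.21) still fell, while Grik1 at -0.18 did not pass (adjusted p = 0.197) and Vsx1 was at -0.01. The share of higher calls was 85.5% on that scale and 60.1% with TMM for the interaction, where the median of all genes was 0.12, and 77.4% and 58.5% for rd10 GSK against WT GSK. In rd10 GSK against rd10 saline, 5 of the 12 tested amacrine genes fell with TMM, and their median was -0.19.

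Other genes of bipolar cells were examined as lists, whose counts stand beside 21.5% of all tested genes risen and 19.0% fallen in rd10 saline against WT saline, and 17.6% risen and 15.2% fallen in rd10 GSK against rd10 saline. In rd10 GSK against WT GSK 15.4% of all tested genes rose and 10.9% fell, and in wild type 0.532% were called. A negative interaction was called for 4.98% and a positive one for 7.49%. Of 15 other bipolar identity factors, all tested, 10 rose and 2 fell in rd10 saline against WT saline (median 0.27). The 3 with the smallest adjusted p were the nuclear factor I genes Nfix (1.08 ± 0.07), Nfib (1.30 ± 0.12) and Nfia (0.73 ± 0.07), which Müller glia also express. In rd10 GSK against rd10 saline 8 fell and 1 rose (median -0.29), with Nfix at -0.76 ± 0.06 and Nfia at -0.61 ± 0.06. The 1 that rose was Otx2 (0.30, adjusted p = 0.00587). In wild type 1 of the 15 was called, Fezf2, a zinc finger factor, which rose (0.52 ± 0.10, adjusted p = 0.0476). Its mean was 13.3 CPM in WT GSK, 12.8 CPM in rd10 saline and 13.2 CPM in rd10 GSK. Only the 2 WT saline libraries, at 8.90 and 9.62 CPM, stood apart, so this call rests on them. In rd10 GSK against WT GSK 2 rose and 3 fell (median -0.05), among them Otx2, a factor of bipolar cells and photoreceptors, at -0.28 ± 0.07.

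Of 10 other genes of OFF bipolar cells, all tested, 3 rose in rd10 saline against WT saline and 0 fell (median 0.16), where 21.5% of all tested genes rose, so the count is near that background. These were the kainate subunits Grik2 (0.55 ± 0.10, adjusted p = 0.00142) and Grik5 (0.19 ± 0.06) and the neuregulin receptor gene Erbb4 (0.40 ± 0.13). In rd10 GSK against rd10 saline 6 fell and 0 rose (median -0.30), with the muscarinic receptor Chrm2 at -0.50 ± 0.10, the protocadherin Pcdh10 at -0.34 ± 0.07 and Grik5 at -0.23 ± 0.05. In rd10 GSK against WT GSK 2 fell, Chrm2 (-0.43 ± 0.10) and Pcdh10 (-0.23 ± 0.07), and 0 rose, where 10.9% of all tested genes fell. Grik2 was the only 1 of the 10 with a called interaction (-0.49 ± 0.14, adjusted p = 0.0382). Negative interactions were also called for 8 of the 15 identity factors, 5 of 11 tested Grm6 cascade genes and 3 of 8 rod bipolar genes. A positive interaction was called for 1 of the Grm6 cascade genes and 0 of the identity factors and rod bipolar genes. Over all tested genes the shares were 4.98% and 7.49%, so a negative interaction was not particular to the 6 genes.

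On the ON side, 11 of 12 listed genes of the Grm6 cascade were tested. In rd10 saline against WT saline 6 rose and 2 fell (median 0.19), with Trpm1 at 0.45 ± 0.09. Gnb3, also listed as a cone gene, rose by 1.02 ± 0.19. Rgs9bp, which anchors a signalling regulator in photoreceptors too, had the largest decrease of the 11 (-2.1 ± 0.19, adjusted p = 3.77e-05). In rd10 GSK against WT GSK 5 fell and 1 rose (median -0.23), and the gene that rose was Gnb3 (0.68). In rd10 GSK against rd10 saline 6 fell and 2 rose (median -0.33), with Grm6 at -0.55 ± 0.06, Trpm1 at -0.64 ± 0.08 and the orphan receptor Gpr179, which organises the cascade at the dendrite tip, at -0.65 ± 0.08. The 2 that rose were Rgs9bp (1.46, adjusted p = 0.00032) and Gnb5 (1.05, adjusted p = 0.00473), both larger changes than those decreases. Of 8 rod bipolar genes 7 fell and 0 rose in rd10 GSK against rd10 saline (median -0.32), such as Strip2 (-0.62 ± 0.09) and Vstm2b (-0.41 ± 0.06), and 6 fell in rd10 GSK against WT GSK, the Purkinje and bipolar cell protein Pcp2 at -0.49 ± 0.07. Both counts include Calb1 (-0.41 ± 0.08 and -0.52 ± 0.08), which was also listed as a horizontal cell gene. Only 1 of the 8, the GABA receptor subunit Gabrr2, rose in rd10 saline (0.28 ± 0.08).

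**Figure D4:**
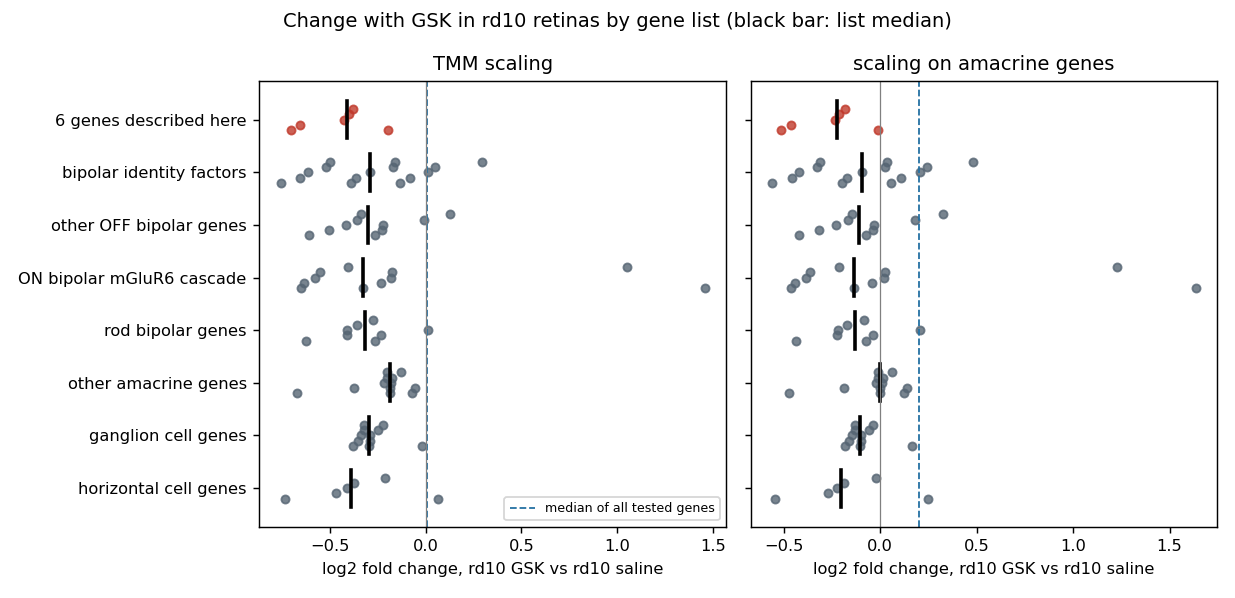
Points are log2 fold changes of single genes in rd10 GSK against rd10 saline by list, with TMM scaling on the left and scaling on amacrine genes on the right, a black bar at each list median and a dashed line at the median of all tested genes. The 6 genes have a median of -0.41 on the left and -0.22 on the right, where the dashed line moves to 0.20.

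Across the 11 libraries, the genes whose log2 CPM ran most like each of the 6 were found among 12208 genes with a mean of at least 5 CPM. Pearson's r is given with no test, since the libraries form 4 groups, and r after the group means were subtracted follows each value. Vsx1 was most like Atg10, an autophagy gene (0.96, then 0.96), the cone arrestin Arr3 (0.95, then 0.96) and the kinesin light chain Klc1 (0.90, then 0.86). Grik1 was most like Tbc1d22a (0.98, then 0.91), the BMP antagonist Chrdl1 (0.98, then 0.89) and the clathrin light chain Cltb (0.97, then 0.84). Scgn was most like Rlbp1, the retinoid-binding protein of Müller glia (0.97, then 0.88), Pgrmc1 (0.96, then 0.89) and Bex2 (0.96, then 0.89). These genes were ranked on the same 11 libraries, so the values after subtraction are no separate evidence of likeness, and much of the spread of Vsx1 lies in 1 library, rd10 GSK replicate 1 at 33.4 CPM.

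The other 3 genes were ranked in the same way. Isl1 was most like ENSMUSG00000087189 (0.98, then 0.75), Kctd12b (0.98, then 0.60) and the neuroligin Nlgn3 (0.97, then 0.06). Cabp5 was most like the kinase gene Camk2b (0.97, then 0.66), Ssbp3 (0.97, then 0.51) and the granin Scg3 (0.97, then 0.39). Tacr3 was most like the myelin-associated gene Omg (0.96, then 0.73), Ccdc136 (0.96, then 0.78) and Lrfn2 (0.95, then 0.53). Among the 6 genes themselves, r was highest for Scgn with Tacr3 (0.92, then 0.62) and lowest for Grik1 with Vsx1 (-0.22, then -0.68).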

How the data were processed

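The authors deposited raw read counts per gene, 1 column per animal, and all 11 columns were used. Per the submitters' processing notes, bcl2fastq, HISAT2 2.1.0, HTSeq and edgeR were used, with the builds NCBIM37 and mm9. Of HTSeq, its version, strand setting and annotation were not given in the sources used here. In GENCODE M21 no other gene's exons overlap those of the 6 genes. Symbols came from GENCODE M21 by Ensembl ID (32919 of 37991 matched), and the unmatched IDs held 0.627% of counts.

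From the deposited counts filterByExpr kept 17099 genes (count of 10 as minimum, 15 in total). These were scaled by TMM and fitted in edgeR 4.0.16 (R 4.3.3) with 1 coefficient per group and robust quasi-likelihood tests. The method was also run on simulated data with changes in rd10 GSK alone, and the outcome is not given here. Log2 CPM used a prior count of 2. Alternatives were DESeq2 1.42.0, limma 3.58.1, other scalings, filters and sample sets. The 6 genes and the lists were chosen with earlier results of these data known. Of each other list, at most the 3 called genes of smallest adjusted p per comparison were named, and for each of the 6 genes the 3 most alike. The risen genes Otx2, Rgs9bp and Gnb5 in rd10 GSK against rd10 saline were named besides. Lrit3 and Slc18a3 were not analysed here. Of the listed identity factors, 1 is not reported here by name.

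Whether equal replicate numbers pair animals could not be decided from the counts. Of 15 same-numbered pairs, 7 had a correlation of deviations over 0.1, and their values ran from -0.42 to 0.63. Differently numbered pairs ran from -0.63 to 0.35. Deviations within groups this small are not independent of each other, so these values decide neither way.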

Additional observations from a re-analysis of the deposited data

Results flagged for a closer look

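The effect of the inhibitor differed between rd10 and wild-type retinas for 4 of the 6 genes by the interaction test (edgeR, adjusted over all genes). A negative interaction was called for 4.98% of all tested genes and a positive one for 7.49%. The difference, effect in rd10 minus effect in wild type on the log2 scale, was -0.759 for Cabp5, -0.619 for Isl1, -0.482 for Tacr3 and -0.477 for Grik1. With the inhibitor and TMM scaling, Cabp5 was lower in 3 of 3 rd10 GSK libraries than in every rd10 saline library, and so were Isl1, Tacr3 and Grik1. Under amacrine scaling Grik1 overlapped, with rd10 GSK replicate 1 at 191.2 CPM and rd10 saline at 173.0 to 192.5 CPM. The share of all genes separated in this way was not counted. The interaction call of Grik1 ended in 9 of 20 alternatives. The wild-type arm of each difference rests on 2 WT saline animals.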

How the results depend on the processing

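Single-gene changes were recomputed under up to 21 alternatives. Of 624 recomputed values 586 kept direction and call, 19 lost the call, 3 gained it and 16 changed sign. No value that was called changed sign. The sign changes were in values that had not passed the test, of which Vsx1 in rd10 GSK against rd10 saline was the largest (-0.19). In rd10 saline against WT saline they occurred under amacrine scaling (Scgn -0.013, Tacr3 -0.019, Vsx1 -0.019) and with the replicate number as a block (Vsx1 -0.0084). With each library left out in turn, the range there was -0.047 to 0.059 for Scgn, -0.031 to 0.062 for Tacr3 and -0.065 to 0.10 for Vsx1. In WT GSK against WT saline Isl1 was 0.033 under amacrine scaling and 0.035 without the lens-bearing libraries, and ran from -0.11 to 0.033 with single libraries left out, and Scgn from -0.0018 to 0.10. Vsx1 in rd10 GSK against rd10 saline ran from -0.34 to 0.0029, and Grik1 in rd10 GSK against WT GSK from -0.023 to 0.17. The cause was not tested.

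With single libraries left out, the number of the 6 genes called was 2 to 3 in rd10 saline against WT saline, 5 to 5 in rd10 GSK against rd10 saline, 0 to 0 in wild type, 2 to 5 for the interaction (4 in the full data) and 3 to 5 in rd10 GSK against WT GSK. For the interaction it was 2 without the lens-bearing libraries.

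Counts over all genes moved more. With single libraries left out they ran from 4435 to 7506 in rd10 saline against WT saline (6919 in the full data), from 12 to 182 in wild type (91), from 864 to 3139 for the interaction (2131) and from 2515 to 5694 in rd10 GSK against WT GSK (4484). The lowest of these came without WT saline replicate 1 in the first 3 and without WT GSK replicate 1 in the last. Without the lens-bearing libraries they were 4081, 12, 524 and 2213 in the same order. With only the compared groups fitted, 3588 were called in rd10 GSK against rd10 saline (5621 in the full data) and 916 in wild type. In wild type DESeq2 called 188, limma-voom 52, amacrine scaling 144 and a Xist covariate 54. With the replicate number as a block it was 38, and the block changed no call of the 6 genes.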
